A study of Mus musculus with 2 samples.

Results

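The genes described here are 10 chemokine and chemokine receptor genes that direct immune cells to skin, 5 ligands (Ccl20, Ccl27a, Ccl17, Ccl22 and Ccl1) and 5 receptors (Ccr6, Ccr10, Ccr4, Ccr8 and Ccr7). They were chosen by symbol, and all 10 were found among the 31053 genes of the count tables, each with 10 or more UMIs (unique transcript molecules) in the cells analysed. Of the 2 libraries, 1 came from a Card14KI mouse (genotype Card14 KI +/+) and 1 from a wild-type (WT) mouse. Both animals were C57BL/6 and 12 months old, and neither had a treatment in the labels. The tissue was the whole thickness of back skin, digested with enzymes, cleared of dead cells and profiled with the droplet-based 10x Genomics 3' kit, version 3.1. CARD14 is a scaffold protein of keratinocytes that signals to NF-kB, and the title of the series names pityriasis rubra pilaris, a scaling skin disease, as the condition the knock-in stands for. The labels name neither the altered residue nor a founder line, and give no driver or Cre. With 1 mouse per genotype no difference has a replicate check, no p-value was made, and all intervals are 95% intervals of counting error only.

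Chemokines are small secreted proteins that bind G protein-coupled receptors on leukocytes and steer their movement. In skin, CCL20 from keratinocytes draws cells with CCR6, which include IL-17-producing T cells, regulatory T cells, B cells and dendritic cells. CCL27, made by keratinocytes, binds CCR10. CCL17 and CCL22 come mainly from dendritic cells and macrophages and bind CCR4, and CCL1 from activated T cells and mast cells binds CCR8. CCR7 works the other way round: its ligands CCL19 and CCL21 guide mature dendritic cells and lymphocytes out of tissue through lymphatic vessels to lymph nodes.

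The regulatory sequence next to the gene start is shown for the 4 ligands on which the cell-class results below turn, because Ccl20 and Ccl27a had their highest levels in different keratinocyte classes and Ccl17 and Ccl22 lie near each other on chromosome 8. RefSeq promoters (GRCm38.p6, 250 bases before to 50 after the start) were matched for 8 of the 10 genes, 11 promoters in all. Capitals mark every match, on either strand, to a loose form of the NF-kB motif (GGG, any 5 bases, then CC), which 50.8% of all 32851 promoters of this length also hold. Overlapping matches run together as 1 block of capitals.
Ccl20 promoter (GRCm38 chr1:83116516-83116815, plus strand): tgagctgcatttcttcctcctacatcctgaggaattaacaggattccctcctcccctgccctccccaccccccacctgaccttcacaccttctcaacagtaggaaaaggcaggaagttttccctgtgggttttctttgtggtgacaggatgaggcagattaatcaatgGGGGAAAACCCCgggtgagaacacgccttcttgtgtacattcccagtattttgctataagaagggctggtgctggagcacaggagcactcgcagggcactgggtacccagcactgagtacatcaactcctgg
Ccl27a promoter at its downstream start (GRCm38 chr4:41770163-41770462, minus strand): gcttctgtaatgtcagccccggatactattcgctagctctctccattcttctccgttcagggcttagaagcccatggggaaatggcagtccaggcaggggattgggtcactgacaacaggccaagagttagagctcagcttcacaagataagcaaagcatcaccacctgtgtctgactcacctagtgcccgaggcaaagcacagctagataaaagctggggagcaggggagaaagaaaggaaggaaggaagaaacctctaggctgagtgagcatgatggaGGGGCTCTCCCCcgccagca
Ccl22 promoter (GRCm38 chr8:94745434-94745733, plus strand): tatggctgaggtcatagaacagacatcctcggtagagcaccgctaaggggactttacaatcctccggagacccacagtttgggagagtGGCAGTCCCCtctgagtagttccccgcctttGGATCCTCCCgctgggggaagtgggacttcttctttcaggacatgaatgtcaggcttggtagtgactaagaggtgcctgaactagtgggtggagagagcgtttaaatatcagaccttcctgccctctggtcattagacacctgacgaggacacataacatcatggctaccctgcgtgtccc
Ccl17 promoter (GRCm38 chr8:94810203-94810502, plus strand): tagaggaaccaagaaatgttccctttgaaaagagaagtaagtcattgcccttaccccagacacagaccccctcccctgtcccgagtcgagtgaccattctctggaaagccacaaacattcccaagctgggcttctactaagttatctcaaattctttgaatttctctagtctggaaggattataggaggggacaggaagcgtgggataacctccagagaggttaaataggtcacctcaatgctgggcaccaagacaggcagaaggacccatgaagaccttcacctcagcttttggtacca
In the Ccl20 promoter the 3 overlapping matches began 82, 81 and 80 bases before the start and together read GGGGAAAACCCC. At the downstream Ccl27a start the 3 matches lay after the start, beginning 30, 31 and 32 bases into the transcript, and the AP-1 motif TGANTCA, held by 7.81% of all promoters, was matched 77 bases before it. Ccl22 had 2 matches, 162 and 131 bases before its start, and the Ccl17 window had 0. Of the 11 promoters of these genes 8 held at least 1 match, beside 50.8% of all promoters. The upstream Ccl27a windows overlap and hold the same matches, so the 11 are not separate counts and no excess is read from them. A match describes letters only and was not tied to binding or to any level below.

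After filtering, 2835 Card14KI cells with 38365728 UMIs and 4161 WT cells with 51040861 UMIs were kept, at a median of 6875 and 7344 UMIs per cell. The libraries shared 2 barcodes. Levels are given as CPM, the UMIs of a gene per 1000000 UMIs of the class. Card14 itself, which checks the library labels only loosely because a 3' count does not show which allele was read, stood at 19.6 CPM (18.0 to 21.4) in Card14KI keratinocytes and 14.6 CPM (13.1 to 16.1) in WT keratinocytes. Cells were sorted into classes by known marker genes, none of them among the 10, and a class name means only that its cells passed that marker gate and are, for example, granular keratinocyte-like. Lor, a cornified envelope protein, was detected in 100% of granular keratinocytes of both libraries. Foxp3, the regulatory T cell factor, was detected in 9 of 16 Card14KI and 26 of 57 WT regulatory T cells. Both genes are markers of those gates, so these values describe the gates and are no independent check of them. Ungated cells were 5.36% of the Card14KI library and 7.55% of the WT library. Fibroblasts, which should lack these genes, served as the background class for free RNA, at a median of 5603 UMIs per Card14KI cell and 7286 per WT cell.

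Over all kept cells, Ccl20 was more than 2-fold higher in the Card14KI library, and 6 of the 10 genes (Ccr6, Ccr10, Ccl17, Ccl22, Ccl1 and Ccr8) were more than 2-fold lower. Among all 17405 genes with 10 or more UMIs, 4.0% were that much higher and 11.4% that much lower in Card14KI. The median log2 ratio of CPM was -1.18 over the 10 genes and -0.16 over all genes. Ccl27a, Ccr4 and Ccr7 stayed within 2-fold, with ratios of 1.34, 1.70 and 0.880. Without the highest cell of each library, a WT cell with 101 of 180 UMIs among them, Ccl22 had a ratio of 0.556 (0.359 to 0.844), inside 2-fold. With cells weighted equally the ratio was 0.506 for Ccr10, also inside 2-fold, and 0.631 for Ccr4, which turned its direction. Immune cells were also a smaller part of the Card14KI library: lymphocytes were 5.04% of its kept cells, against 8.24% in WT, and mononuclear phagocytes 3.14%, against 4.81%. Levels are given within cell classes below, where the number of cells in the class does not enter. In pooled classes, such as all lymphocytes or all keratinocytes, the makeup by gate still enters.

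**Figure D1:**
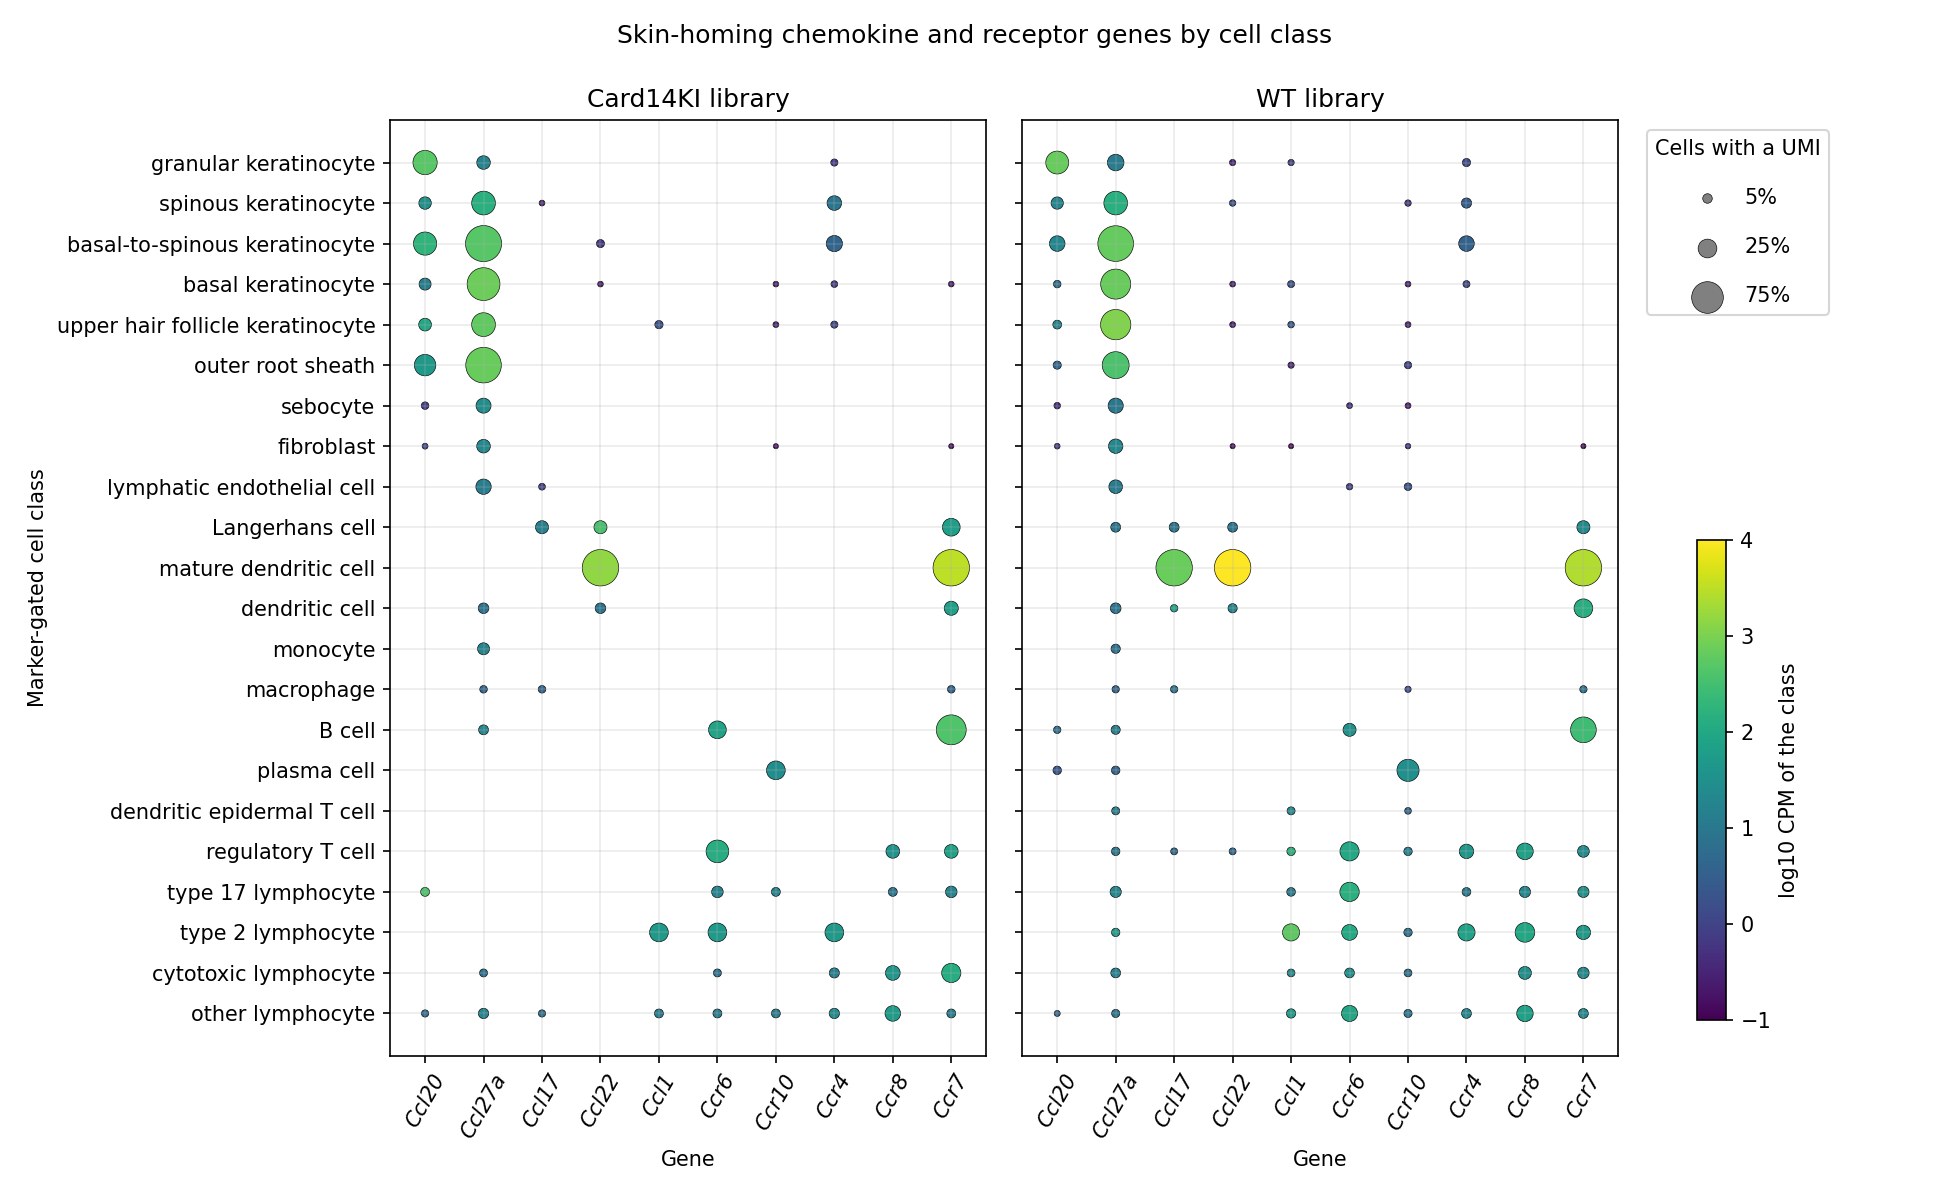
Ligand genes (left 5 columns) and receptor genes (right 5 columns) in 22 marker-gated cell classes of the Card14KI library (left panel) and the WT library (right panel). Dot area grows with the share of cells with a UMI, colour gives log10 CPM of the class, and no dot means 0 UMIs; the mature dendritic cell row rests on 2 cells in each library. Ccl20 is highest in the granular row of both libraries, and Ccl27a in the basal row of Card14KI and the upper hair follicle row of WT, with both present in other keratinocyte rows. Receptors are seen mostly in lymphocyte, B, plasma and dendritic rows, and Ccr4 also in spinous and basal-to-spinous rows. Few UMIs give receptor dots in other rows too, among them Ccr4 in granular and basal cells, Ccr10 in fibroblasts and Ccr7 in macrophages.

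Ccl20 (ENSMUSG00000026166; chromosome 1, 83116766 to 83119167, plus strand) encodes the ligand of CCR6. It was almost wholly a keratinocyte transcript, with 93.8% of its 3881 UMIs in keratinocytes of the Card14KI library and 99% of its 2305 UMIs in those of the WT library. Its level was highest in granular keratinocytes, the outermost living layer, in both libraries. There it stood at 499.7 CPM (479 to 521) in 148 Card14KI cells and 691.7 CPM (662 to 722) in 94 WT cells, a ratio of 0.722 (0.680 to 0.768). The median log2 ratio of all genes in these cells was 0.14. Of all genes 7.21% were more than 2-fold higher and 3.41% more than 2-fold lower in Card14KI, and neither member tested there, Ccl20 or Ccl27a, was.

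The granular signal was held by few cells. A UMI of Ccl20 was found in 64 of 148 Card14KI granular cells (43.2%) and 36 of 94 WT granular cells (38.3%), against 0.688% and 0.541% of Card14KI and WT fibroblasts. Thinned to 2000 UMIs per cell, which left out 7 Card14KI cells and 0 WT cells, the shares were 22.7% and 23.4%, a difference of -0.71 points (-12.0 to 9.89). The highest cell held 375 UMIs in Card14KI and 451 in WT, and 7 Card14KI cells and 4 WT cells held 50% of the granular UMIs of their library. Among cells with a UMI the median was 10.5 UMIs in Card14KI and 14 in WT. A difference in the share of granular cells with Ccl20 was thus not detectable at this depth, and a few cells set the summed level.

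Outside the granular gate the order was reversed. Card14KI keratinocytes of all other gates together held 1519 Ccl20 UMIs in 827 cells (69.2 CPM), against 187 UMIs in 902 WT cells (8.08 CPM), a ratio of 8.57 (7.36 to 10.0). This grouping was chosen after the granular values were seen. A single Card14KI cell of the basal-to-spinous gate, which takes cells with both basal and spinous keratins, held 792 of those UMIs, and without the highest cell of each library the ratio was 5.58 (4.64 to 6.74). It was 3.28 with clusters in place of gates and 2.78 with cells weighted equally. The makeup of this grouping also differed between the libraries. Inner root sheath cells were 1 in Card14KI and 154 in WT, where they held Ccl20 at 2.26 CPM, and basal-to-spinous cells were 99 and 24. The part of makeup in the ratio was not tested. A UMI was present in 100 of the 827 Card14KI cells (12.1%) and in 34 of the 902 WT cells (3.77%), a difference of 8.32 points (5.81 to 10.9). Of the 14523 genes tested in these cells, 5.21% were more than 2-fold higher and 11.3% more than 2-fold lower in Card14KI; of the 5 members tested, Ccl20 and Ccr4 were higher and Ccl1 lower.

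The higher Card14KI level was found in 5 gates taken singly, with exceptions under other settings. Basal-to-spinous cells held 957 UMIs (177.4 CPM) in 99 Card14KI cells and 21 UMIs (19.5 CPM) in 24 WT cells, and 31.1 CPM in Card14KI and 13 CPM in WT without the highest cell of each. In the upper hair follicle, the funnel where hair leaves the skin, Ccl20 reached 100.3 CPM in 152 Card14KI cells and 22.2 CPM in 149 WT cells, a ratio of 4.52 (3.54 to 5.84). There a single Card14KI cell held 274 of 363 UMIs, and the ratio was 2.87 without the highest cells, 2.17 with clusters in place of gates and 1.81, inside 2-fold, with doubled gate minimums. At 2000 UMIs per cell 3.33% of Card14KI and 0.719% of WT follicle cells had a UMI, a difference of 2.61 points (-1.15 to 6.89) that includes 0. Spinous cells stood at 32.4 CPM in Card14KI and 19.3 CPM in WT, with a UMI in 10% and 9.64% of cells. Basal cells, the dividing layer, stood at 13.8 CPM in Card14KI and 7.46 CPM in WT. In spinous cells 7.82% of genes passed 2-fold, 3.95% higher and 3.88% lower. In basal cells 4.24% were higher and 6.97% lower, and Ccl20 passed 2-fold in neither, with ratios of 1.68 (1.11 to 2.59) in spinous and 1.85 (1.15 to 3.05) in basal cells. Without the highest cell of each library it passed 2-fold in both, at 2.54 in spinous and 3.14 in basal cells. With doubled gate minimums the ratios were 4.96 in spinous and 2.18 in basal cells, and with clusters 1.0 in spinous and 14.7 in basal cells. With cells weighted equally the basal ratio turned to 0.648. Outer root sheath cells held 43 UMIs in 21 Card14KI cells and 13 UMIs in 95 WT cells. The basal-to-spinous gate was also unequal in depth, with a median of 58292 UMIs per Card14KI cell and 27298 per WT cell, and the part of depth in its share of cells with a UMI was not tested. Over all keratinocytes the ratio was 1.60 (1.51 to 1.68), and 1.09 with each gate given the same weight in both libraries. Granular cells made up 15.2% of Card14KI keratinocytes and 9.44% of WT keratinocytes.

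Some Ccl20 lay outside keratinocytes. In the Card14KI library, 1 type 17 lymphocyte of 24 carried 44 UMIs and 1 ungated cell carried 153, whereas the 26 WT type 17 lymphocytes held 0. Krt14, a keratinocyte keratin, had a UMI in 17.5% of Card14KI and 17.8% of WT lymphocytes, and its part in the Ccl20 of that lymphocyte was not tested.

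**Figure D2:**
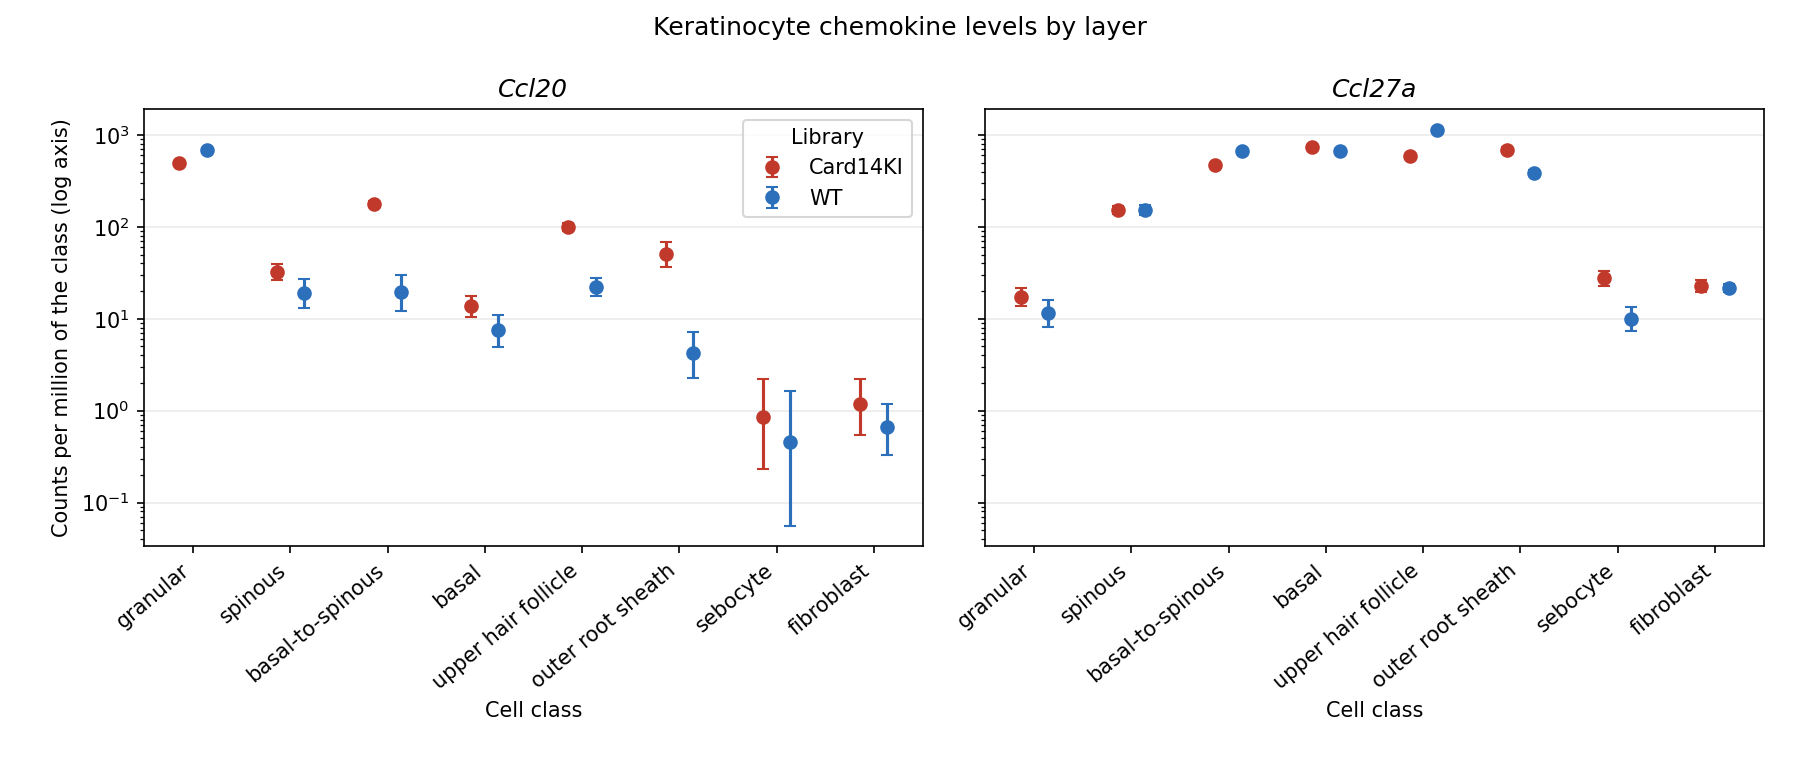
Level of Ccl20 (left) and Ccl27a (right) in keratinocyte gates, sebocytes and fibroblasts, as CPM of the class on a log axis, with Card14KI in red left of WT in blue; bars are 95% Poisson intervals. Ccl20 peaked in granular cells and was higher in Card14KI in the 5 other epidermal and follicular gates, while Ccl27a was highest in basal, basal-to-spinous, upper follicle and outer root sheath cells and near the fibroblast level in granular cells.

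Ccr6 (ENSMUSG00000040899; chromosome 17, 8236043 to 8257141, plus strand), the receptor of CCL20, was lower in Card14KI lymphocytes. It had 13 UMIs in 143 Card14KI lymphocytes (24.9 CPM) and 87 UMIs in 343 WT lymphocytes (73.4 CPM), a ratio of 0.339 (0.173 to 0.610). In lymphocytes 3.44% of 8632 genes were more than 2-fold higher and 11.3% more than 2-fold lower in Card14KI, and of the 8 members tested 2 were higher (Ccr7, and Ccl20 through 1 cell) and 3 lower (Ccr6, Ccl1 and Ccl27a). Fibroblasts held 0 Ccr6 UMIs in either library.

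The lymphocyte gates did not all move alike. Regulatory T cells held Ccr6 in 6 of 16 Card14KI cells (132.5 CPM) and 15 of 57 WT cells (98.8 CPM). Type 17 lymphocytes held it in 2 of 24 Card14KI cells and 7 of 26 WT cells, with 2 and 14 UMIs. Lymphocytes of no subset gate held 2 UMIs in 48 Card14KI cells and 37 UMIs in 127 WT cells, a ratio of 0.143 (0.0167 to 0.555), in a class where 6.28% of genes were more than 2-fold higher and 12.4% more than 2-fold lower. Over the alternatives this Ccr6 ratio ran from 0.0823 to 0.318. There Ccr6 and Ccl1 were the lower ones of 5 members tested. B cells held 4 UMIs in 18 Card14KI cells and 5 UMIs in 45 WT cells. Cytotoxic lymphocytes had 1 UMI in Card14KI and 4 in WT, and type 2 lymphocytes 1 and 12. In lymphocytes of no subset gate the Poisson intervals of the level were 1.52 to 45.2 CPM in Card14KI and 61.6 to 120.6 CPM in WT. In type 17 cells they were 2.17 to 64.6 CPM in Card14KI and 82.9 to 254 CPM in WT. The type 17 gate has under 30 cells in each library, so no ratio and no share over all genes was made there. In both gates the intervals of the share of cells with a UMI overlapped. The level intervals overlapped in regulatory T cells and B cells, where Card14KI had the higher level.

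The makeup of the lymphocytes also differed. Type 17 cells were 16.8% of Card14KI and 7.58% of WT lymphocytes, cytotoxic cells 23.8% and 10.8%, and regulatory T cells 11.2% and 16.6%. With each gate given the same weight in both libraries, Ccr6 stood at 29.6 CPM in Card14KI and 77.3 CPM in WT, a ratio of 0.383. The share of lymphocytes with a UMI was 8.39% in Card14KI and 15.2% in WT, and at 2000 UMIs per cell 6.20% and 11.0%, a difference of -4.76 points (-9.80 to 1.58), which includes 0. The interval left out 0 without a cell filter (-6.38 points), with a stricter one (-7.82) and with clusters in place of gates (-8.27), and included it with doubled gate minimums (-3.66).

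**Figure D3:**
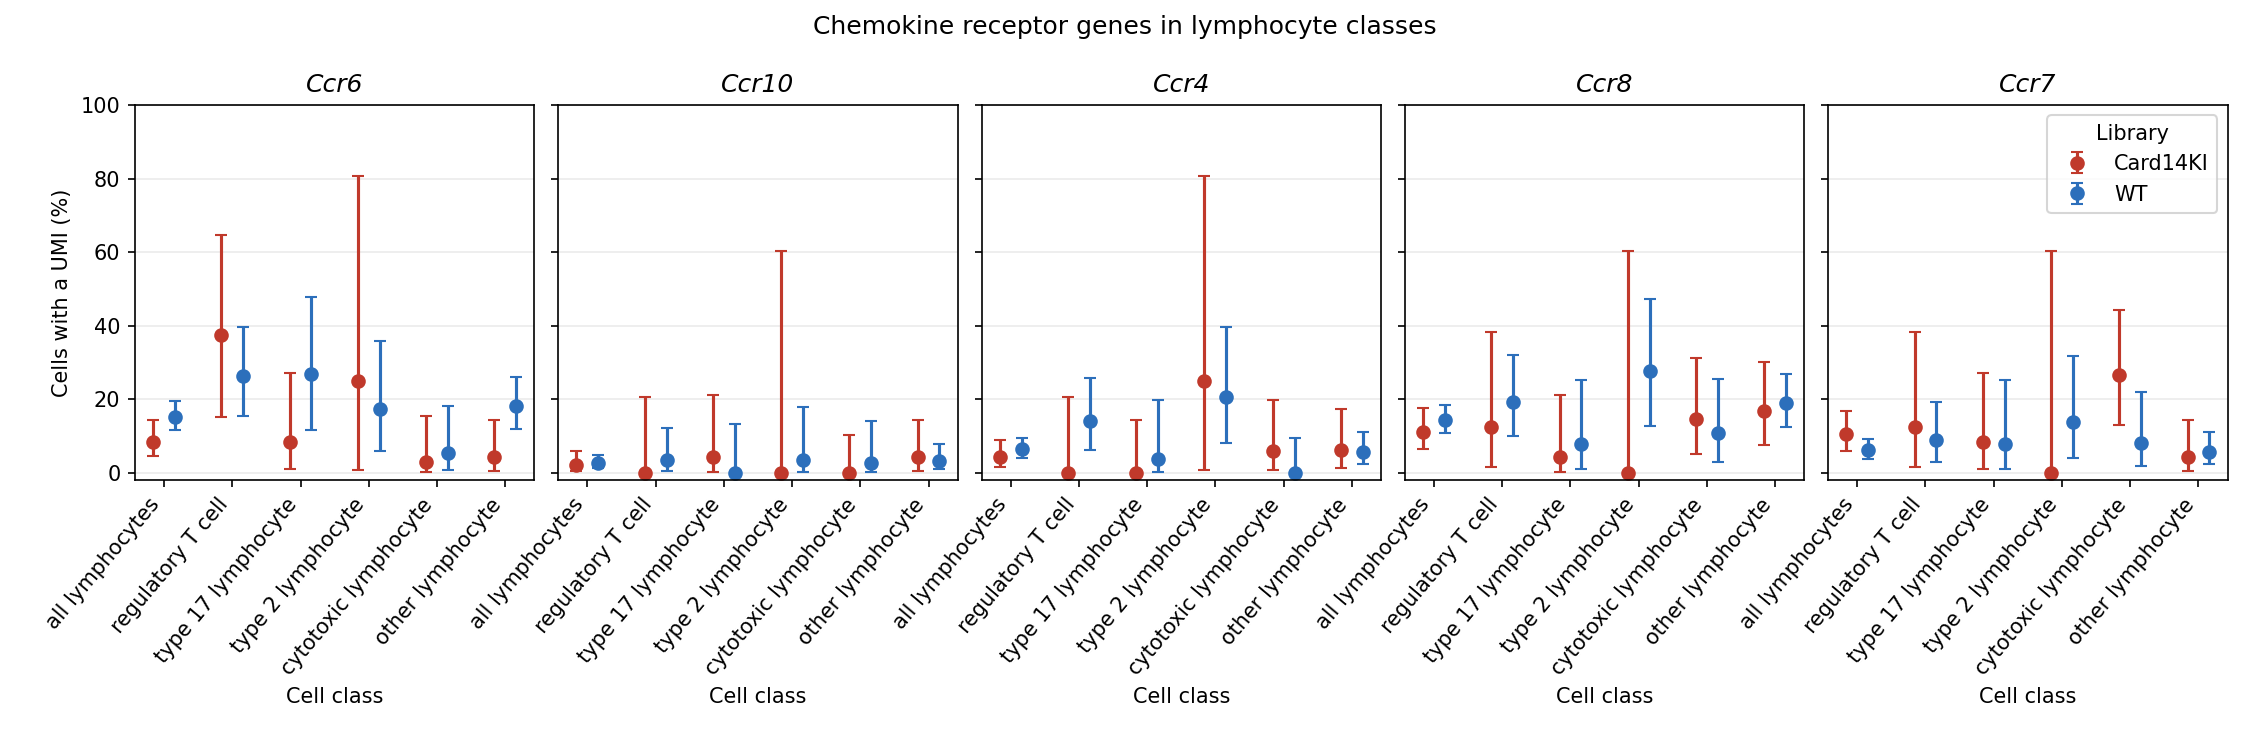
Share of cells with a UMI of each receptor gene in all lymphocytes and 5 lymphocyte gates, Card14KI in red left of WT in blue; bars are 95% Clopper-Pearson intervals. The intervals of the libraries overlap in every gate shown, the points for Ccr6 are lower in Card14KI type 17 and other lymphocytes, the point for Ccr7 is higher in Card14KI cytotoxic lymphocytes, and the Card14KI type 2 gate rests on 4 cells.

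Ccl27a (ENSMUSG00000073888; chromosome 4, 41769467 to 41774247, minus strand) encodes the keratinocyte ligand of CCR10. Its strand partner Il11ra1 runs the other way and overlaps it by 8 bases. Transcripts of 5 other genes share 100 or more of their 31-base words with it, so reads of these copies can be split or lost: the closest by words shared, Ccl27b and Gm13306, had 19 and 5 UMIs in Card14KI cells and 8 and 7 in WT cells. Gm20878, which shares 200 words, had 31 UMIs in Card14KI and 68 in WT. Ccl27a was the most abundant of the 10 genes, with 9492 UMIs in Card14KI and 9395 in WT cells, of which 96.6% and 93.4% were in keratinocytes.

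From basal to granular cells the level of Ccl27a ran opposite to that of Ccl20. Basal cells stood at 744.1 CPM in Card14KI and 677.5 CPM in WT, spinous cells at 152.4 and 151.9 CPM, and granular cells at 17.4 and 11.6 CPM. The granular level was below that of fibroblasts (22.7 CPM in Card14KI and 21.6 CPM in WT). In granular cells the UMIs lay in few cells, 74 UMIs in 18 of 148 Card14KI cells with 57 of them in the 5 highest, and 35 UMIs in 18 of 94 WT cells with 21 in the 5 highest. In fibroblasts 174 UMIs lay in 161 Card14KI cells, at most 3 in a cell, and 358 UMIs in 284 WT cells, at most 10. The part of free RNA in either class was not tested. Sebocytes, the oil gland cells, stood at 27.5 CPM in Card14KI, close to the fibroblast level, and 10.1 CPM in WT. Fibroblasts themselves had a UMI in 12.3% of Card14KI and 14% of WT cells. Of keratinocytes with Ccl20, 51.8% (85 of 164) in Card14KI and 38.6% (27 of 70) in WT also held Ccl27a. Among all keratinocytes 47.4% in Card14KI and 40.7% in WT held it. In granular cells with Ccl20 the shares were 12.5% (8 of 64) and 27.8% (10 of 36). Among all granular cells they were 12.2% and 19.1%, and the overlap was not tested against these plain shares.

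In the upper hair follicle Ccl27a was lower in Card14KI. It stood at 595.5 CPM (570.7 to 621.2) in Card14KI and 1126 CPM (1091 to 1161) in WT, a ratio of 0.529 (0.502 to 0.558), just inside 2-fold. The ratio was past 2-fold with clusters in place of gates (0.468) and with cells weighted equally (0.385). The share of cells with a UMI was 41.4% (63 of 152) in Card14KI and 68.5% (102 of 149) in WT. At 2000 UMIs per cell the shares were 26.7% and 49.6%, a difference of -23.0 points (-33.4 to -11.8), while the cells had a median of 12372 UMIs in Card14KI and 11472 in WT. Without the highest cell of each library the ratio was 0.537. Krt79, itself a marker of this gate, was found in 89.5% of Card14KI and 90.6% of WT cells. All genes in this class had a median log2 ratio of -0.13, with 4.78% more than 2-fold higher and 9.43% more than 2-fold lower, and Ccl20 was the higher one of 3 members tested.

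In the basal gate as set, Ccl27a was found in 159 of 197 Card14KI cells (80.7%) and 111 of 165 WT cells (67.3%), and in 57.4% and 40.5% at 2000 UMIs, a difference of 16.9 points (6.37 to 27). With doubled gate minimums, under which 51 of the 197 Card14KI and 81 of the 165 WT cells left the gate, the shares were 68.7% in Card14KI and 64.5% in WT, a difference of 4.23 points (-6.05 to 14.8) that includes 0. The summed level differed little, with a ratio of 1.10 (1.04 to 1.16). In Card14KI 22 cells held 50% of the basal UMIs and the highest cell held 141, whereas in WT 10 cells held 50% and the highest held 266. The direction of the summed level did not hold under doubled gate minimums, clusters in place of gates or equal weighting of cells, with log2 ratios of -0.53, -0.20 and -0.05. Outer root sheath cells stood at 684.3 CPM in 21 Card14KI cells and 390.2 CPM in 95 WT cells, and basal-to-spinous cells at 476.7 CPM in 99 and 661.7 CPM in 24; each has too few cells in 1 library for a ratio.

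**Figure D4:**
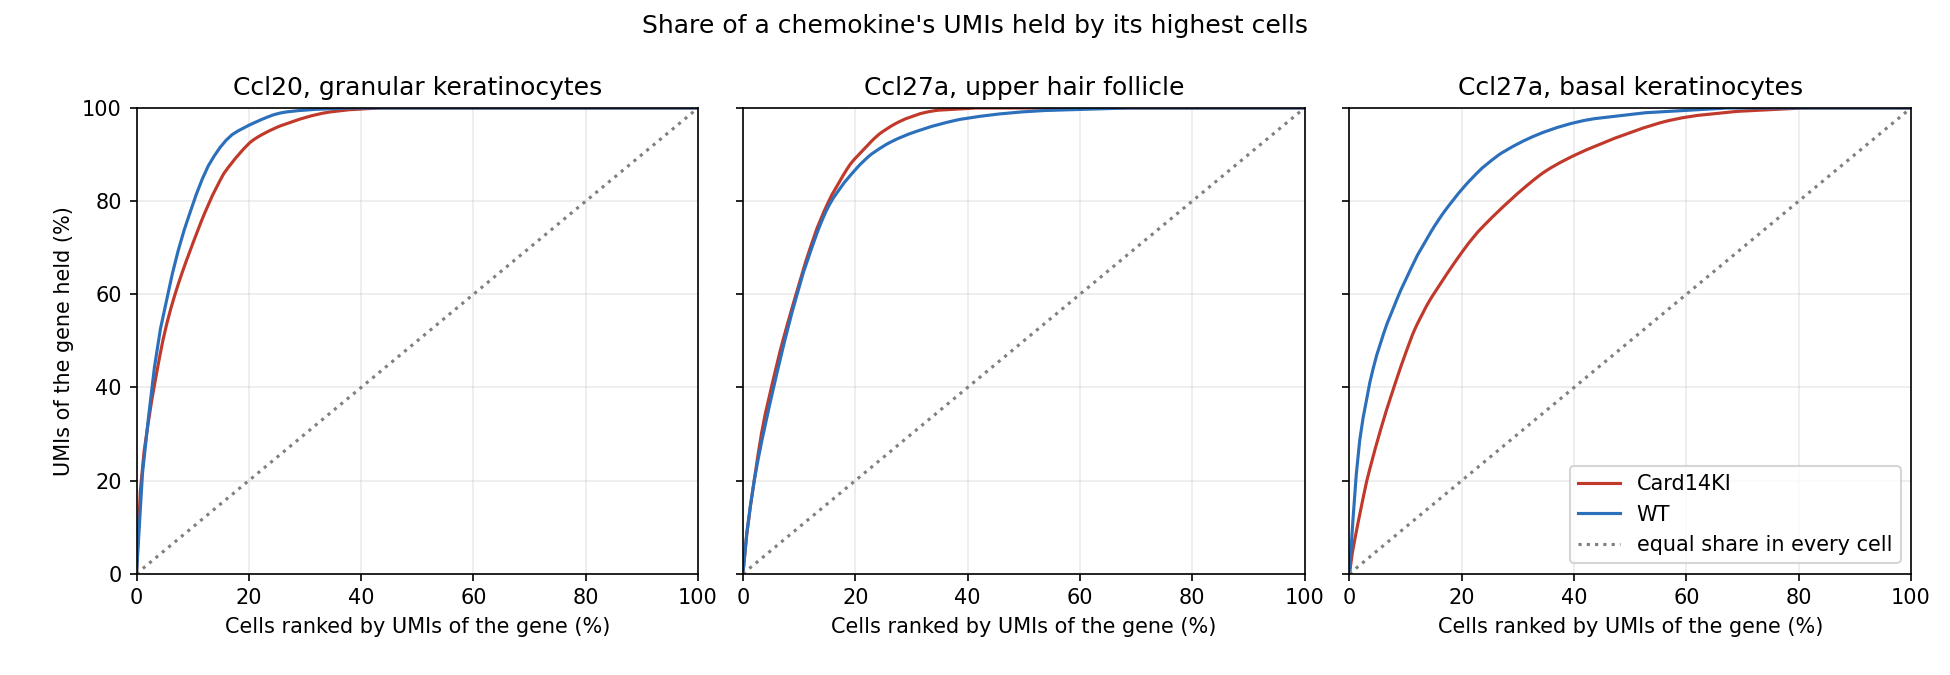
Share of the UMIs of Ccl20 in granular keratinocytes (left) and of Ccl27a in upper hair follicle (middle) and basal keratinocytes (right) held by the highest-ranked cells, Card14KI in red and WT in blue; the dotted line is an equal share in every cell. The steep rise shows that a small part of the cells holds most of each transcript, and in basal cells the WT curve lies above the Card14KI curve, with 50% held by 22 Card14KI cells and 10 WT cells.

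Ccr10 (ENSMUSG00000044052; chromosome 11, 101172997 to 101175443, minus strand), the receptor of CCL27 and CCL28, was scarce. It lies over the oppositely transcribed Cntnap1, and no source used here states the strand setting of the count. Among classes with more than 1 UMI its highest level was in plasma cells, the antibody-secreting cells in which it is a known homing receptor, with 7 UMIs in 5 of 20 Card14KI cells (26.9 CPM) and 16 UMIs in 10 of 28 WT cells (31.2 CPM). Lymphocytes held 4 UMIs in Card14KI and 10 in WT (7.65 and 8.44 CPM), a ratio of 0.907 (0.208 to 3.14). The Poisson intervals overlapped in plasma cells, which are too few for a ratio, and the lymphocyte interval includes 1. Over all kept cells there were 16 UMIs in Card14KI and 45 in WT, 2.11-fold lower in Card14KI (1.17 to 4.01).

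Ccl17 (ENSMUSG00000031780; chromosome 8, 94810453 to 94812036, plus strand) and Ccl22 (ENSMUSG00000031779; chromosome 8, 94745590 to 94751699, plus strand) encode the CCR4 ligands and lie 58753 bases apart. Both rested on a handful of cells. Ccl17 had 5 UMIs in the Card14KI library, each in a different cell, and 67 in WT, of which 1 dendritic cell held 27 and 1 ungated cell 20. In mononuclear phagocytes that is 2 UMIs (3.57 CPM) in 89 Card14KI cells and 43 UMIs (32.8 CPM) in 200 WT cells, a ratio of 0.109 (0.0128 to 0.418). The share of phagocytes with a UMI was 2.25% in Card14KI and 3% in WT (6 cells), a difference of -0.753 points (-4.51 to 5.06) that includes 0. Of 8677 genes in these cells, 4.48% were more than 2-fold higher and 9.08% more than 2-fold lower in Card14KI, and Ccl17 was the 1 lower member of the 4 tested. Without the highest cell of each library its ratio was 0.147 (0.0035 to 0.944), with doubled gate minimums 0.297 and with clusters in place of gates 0.0695.

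Ccl22 had its highest level in the mature dendritic cell gate of both libraries. The 2 Card14KI cells of that gate held 18 and 7 UMIs, and the 2 WT cells 101 and 37. A Card14KI Langerhans cell, an epidermal dendritic cell, held another 23, the highest cell of that library. Over mononuclear phagocytes Ccl22 stood at 87.5 CPM in Card14KI and 111.2 CPM in WT, a ratio of 0.787 (0.557 to 1.09), and at 1.36 (0.807 to 2.26) without the highest cell of each library. With each phagocyte gate given the same weight it was 0.339. With doubled gate minimums it was 2.93. The direction turned with the gate and with 1 cell in each library, so no direction is given. Ccl17 and Ccl22 were found together in 0 Card14KI cells and 4 WT cells.

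Ccr4 (ENSMUSG00000047898; chromosome 9, 114490316 to 114504916, minus strand), the receptor of both, was found in lymphocytes and also in keratinocytes. Lymphocytes held 7 UMIs in Card14KI (13.4 CPM) and 28 in WT (23.6 CPM), a ratio of 0.567 (0.209 to 1.33). It was past 2-fold with cells weighted equally (0.483) and without the highest cell of each library (0.456). Type 2 lymphocytes, the makers of IL-5 and IL-13, held it in 1 of 4 Card14KI cells and 6 of 29 WT cells, the class with the highest level in WT. Regulatory T cells held it in 0 of 16 Card14KI cells, at a median of 2799 UMIs, which allows up to 18.8% of cells with a UMI, and in 8 of 57 WT cells.

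In keratinocytes Ccr4 ran the other way. They held 58 UMIs in 50 of 975 Card14KI cells (2.21 CPM) and 21 UMIs in 19 of 996 WT cells (0.802 CPM), a ratio of 2.76 (1.65 to 4.79). Among 14759 genes tested in keratinocytes, 4.57% were more than 2-fold higher and 11.0% more than 2-fold lower in Card14KI, and of the 5 members tested Ccr4 was higher and Ccl1 lower. The highest Card14KI level was in spinous cells, 26 UMIs in 23 of 160 Card14KI cells (9.05 CPM) and 5 UMIs in 5 of 83 WT cells (3.01 CPM). That is a ratio of 3.0 (1.13 to 10.0), which made Ccr4 the higher one of 3 members tested there. Of 9573 genes tested in spinous cells, 3.95% were more than 2-fold higher and 3.88% more than 2-fold lower in Card14KI. The spinous Ccr4 ratio fell inside 2-fold with doubled gate minimums (1.86) and with clusters in place of gates (1.52). Basal-to-spinous cells held 22 UMIs (4.08 CPM) in Card14KI and 4 UMIs (3.71 CPM) in WT.

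No keratinocyte held more than 3 Ccr4 UMIs. Fibroblasts held 0 in 1309 Card14KI and 2035 WT cells. At 2000 UMIs per cell, 5 of 147 Card14KI spinous cells (3.40%) and 1 of 75 WT spinous cells (1.33%) kept a UMI, a difference of 2.07 points (-4.09 to 6.52) that was not detectable at this depth. The Ccr4 transcript also shares 31-base words with 181 other genes, at most 97 words with any of them, and whether keratinocyte reads belong to such stretches was not tested. With keratinocyte gates given the same weight in both libraries the ratio was 1.43, and spinous cells were 16.4% of Card14KI and 8.33% of WT keratinocytes.

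Ccl1 (ENSMUSG00000020702; chromosome 11, 82176657 to 82305690, minus strand), the ligand of CCR8, had the lowest Card14KI to WT ratio of the 8 members tested in lymphocytes. It had 3 UMIs in 143 Card14KI lymphocytes (5.74 CPM) and 131 UMIs in 343 WT lymphocytes (110.5 CPM), a ratio of 0.0519 (0.0106 to 0.155). The WT count was concentrated: 18 cells held it, the highest with 33 and the next with 24 UMIs. Without the highest cell of each library the ratio was 0.0465.

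Type 2 lymphocytes held 1 Ccl1 UMI in 4 Card14KI cells and 68 UMIs in 6 of 29 WT cells. Regulatory T cells held 0 UMIs in 16 Card14KI cells and 31 UMIs in 2 of 57 WT cells. Lymphocytes of no subset gate held 2 UMIs in Card14KI and 23 in WT, a ratio of 0.230 (0.0263 to 0.932). A single WT cell held 14 of those 23, and without the highest cell of each library the ratio was 0.295 (0.0067 to 2.13), which includes 1. It was inside 2-fold with doubled gate minimums (0.516) and with cells weighted equally (0.522), and 0.0478 with clusters in place of gates. Type 2 cells were 2.80% of Card14KI lymphocytes (0.767% to 7.01%) and 8.45% of WT lymphocytes (5.74% to 11.9%), and Il5 was at 0 in the 4 Card14KI type 2 cells and had a UMI in 17 of the 29 WT cells. With equal gate weights the levels were 7.66 CPM in Card14KI and 87.2 CPM in WT. The share of lymphocytes with a UMI was 2.10% in Card14KI and 5.25% in WT, a difference of -3.15 points (-6.36 to 1.18), which includes 0. Upper hair follicle keratinocytes held 7 UMIs in 5 Card14KI cells and 9 UMIs in 2 WT cells.

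Ccr8 (ENSMUSG00000042262; chromosome 9, 120092114 to 120094906, plus strand), a receptor of skin-resident and regulatory T cells, was found in these 2 libraries only in lymphocytes and, in WT, in 7 ungated cells. It stood at 34.4 CPM (18 UMIs in 16 of 143 cells) in Card14KI lymphocytes and 51.5 CPM (61 UMIs in 49 of 343 cells) in WT lymphocytes, a ratio of 0.669 (0.372 to 1.15). Lymphocytes of no subset gate differed by less than counting error, at 56.4 CPM in Card14KI and 68.6 CPM in WT (ratio 0.822, 0.342 to 1.78), and the ratio was 0.542 with doubled gate minimums and 1.05 with a stricter cell filter. In WT, type 2 lymphocytes (8 of 29 cells) and regulatory T cells (11 of 57) held it most often. Lymphocytes of no subset gate were close to the latter, with 24 of 127 WT cells. In Card14KI they held it in 8 of 48 cells, and cytotoxic lymphocytes in 5 of 34. Over all kept cells, by comparison, the ratio was 0.333 (0.187 to 0.564). Ccr8 was found in 0 of 3 Card14KI lymphocytes with Ccl1 and 7 of 18 such WT lymphocytes.

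Ccr7 (ENSMUSG00000037944; chromosome 11, 99144196 to 99155077, minus strand), the exit receptor, was highest in mature dendritic cells of both libraries. The 2 Card14KI cells held 39 and 13 UMIs, and the 2 WT cells 30 and 5. B cells came next by share, with a UMI in 12 of 18 Card14KI cells (417.4 CPM) and 22 of 45 WT cells (280.6 CPM). Other dendritic cells held it in 2 of 15 Card14KI cells (67.5 CPM) and 11 of 44 WT cells (137.5 CPM). Over mononuclear phagocytes the ratio was 1.69 (1.21 to 2.35), and its interval included 1 without the highest cell of each library (0.62 to 1.65), when the levels were 47 CPM in Card14KI and 45.9 CPM in WT. The ratio was 1.11 without a cell filter, 3.04 with doubled gate minimums and 0.983 with the same gate weights in both libraries.

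Among lymphocytes Ccr7 stood at 47.8 CPM in Card14KI lymphocytes and 21.9 CPM in WT lymphocytes, a ratio of 2.18 (1.21 to 3.93). Cytotoxic lymphocytes, gated on Cd8a and killer cell genes, held 17 UMIs in 9 of 34 Card14KI cells (123.1 CPM) and 3 UMIs in 3 of 37 WT cells (23.4 CPM). That ratio was 5.26 (1.52 to 28.0), in a class where 7.86% of 3243 genes were more than 2-fold higher and 11.7% more than 2-fold lower in Card14KI. Ccr8, the other member tested there, stayed within 2-fold. The cytotoxic ratio was not recomputed with doubled gate minimums, which left 26 Card14KI cells in the gate. Nor was it recomputed with a stricter cell filter or with clusters in place of gates. The highest cytotoxic cell held 4 Ccr7 UMIs in Card14KI and 1 in WT, and Cd8a was found in 64.7% of Card14KI and 59.5% of WT cells of the gate. The share of all lymphocytes with Ccr7 was 10.5% in Card14KI and 6.12% in WT, a difference of 4.37 points (-0.69 to 10.8). At 2000 UMIs per cell the shares were 3.88% in Card14KI and 4.32% in WT, a difference of -0.44 points (-4.11 to 4.75). At 1000 UMIs per cell they were 6.29% in Card14KI and 0.588% in WT, a difference of 5.71 points (2.38 to 11.0) that leaves out 0. The thinning depths disagreed, so no order is read from these shares. The lymphocyte ratio was inside 2-fold with equal gate weights (1.74) and with a stricter cell filter (1.82).

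Other ligands, decoy receptors and homing molecules of the same axes were taken from a list of 22 genes, of which 16 had enough UMIs and cells in their main class to compare. In that class 1 was more than 2-fold higher in Card14KI, 2 were lower and 13 stayed within 2-fold. Of all genes tested, 3.59% were more than 2-fold higher and 10.3% lower in Card14KI fibroblasts, and 4.16% higher and 8.60% lower in lymphatic endothelial cells, the classes of those 3. In macrophages 6.51% were higher and 12.3% lower, and in neutrophils 6.56% and 16.4%. These 3, and Ccl19 and Ccl28 below, are named with their values already seen. The higher one was Selp, encoding P-selectin, which captures rolling leukocytes, at 40.7 CPM in 62 Card14KI lymphatic endothelial cells and 3.69 CPM in 81 WT cells, a ratio of 11.0 (4.02 to 42.2), with 42.2% of the Card14KI UMIs in 1 cell and 4 UMIs in WT in all. With cells weighted equally it was 20.5. The lower ones were Ccl8, a ligand of CCR8 in mice, at 78.3 CPM in Card14KI and 176.6 CPM in WT fibroblasts, and Ackr2, a decoy receptor that clears inflammatory chemokines, at 110.3 CPM in Card14KI and 288.7 CPM in WT lymphatic endothelial cells. The Ackr2 ratio was 0.382, and 0.628, inside 2-fold, with cells weighted equally. The 4 most abundant genes of the list were Ccl21a, Ccl8, Cxcl16 and Ccr2. Ccl21a, the lymphatic ligand of CCR7, stood at 19764 CPM in Card14KI and 28982 CPM in WT lymphatic endothelial cells, a ratio of 0.682 (0.670 to 0.694). Ccl19, the other CCR7 ligand, stood at 42.4 CPM in Card14KI and 60.2 CPM in WT fibroblasts, a ratio of 0.703 (0.619 to 0.798), and Ccl28 had 9 UMIs in Card14KI and 15 in WT in all.

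Genes with the most similar profile were sought for the 7 members with 100 or more UMIs, by Pearson correlation of log2(CPM + 10) over 32 combinations of class and library, as a description in which points share libraries and many are near 0. The profile of Ccl20 was most like that of 2200002D01Rik (r = 0.92), then Ccdc113 and Elmod1. Ccl27a was most like Sostdc1 (r = 0.95), Plek2 and Col17a1, the last a collagen of the basal cell attachment that also served as a basal gate marker. Ccr6 was most like Ikzf3 (r = 0.95), Ctla4 and St6galnac3, and Ccl1 like Il2ra (r = 0.95), Camk4 and Il2, where Ctla4 and Il2ra are also gate markers. For Ccr4 the nearest gene was Il17a (r = 0.88), a type 17 gate marker. Only combinations of 30 or more cells were used, so the type 17 gate, with 24 Card14KI and 26 WT cells, was not among them. For Ccr7 the nearest gene was H2-Ob (r = 0.86) and for Ccl22 Kif1a (r = 0.81).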

How the data were processed

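The authors deposited raw UMI counts, whole numbers per gene and barcode that were not normalized. Per the submitters' processing notes the counting used Cell Ranger 6.0.2 and mm10; per the file headers it was Cell Ranger 5.0.0, and which version made the counts is not known. Scrublet, run per library in scanpy 1.11.5, marked 4 Card14KI and 2 WT cells at its own threshold, which was taken as not having worked. Cells with under 500 genes or 20% or more mitochondrial UMIs (435 in Card14KI and 681 in WT) were removed, then the highest doublet scores at 0.8% per 1000 barcodes (78 in Card14KI and 174 in WT).

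Cells passed a class gate by the number of its markers detected and their UMIs per 10000; cells passing gates of several broad classes were kept apart as mixed (11 in Card14KI and 36 in WT). Cells near a cut, which left the class when the gate's UMI minimum was doubled, were 22 and 13 of the granular, 34 and 35 of the upper hair follicle, and 51 and 81 of the basal gate, in Card14KI and WT. Doubling also let cells enter some gates, the basal gate among them. A class sum was scaled to its total UMIs (CPM). Sums have exact Poisson intervals, shares Clopper-Pearson intervals, CPM ratios exact conditional binomial intervals and share differences Newcombe intervals, all at 95%. Interval code was tested on simulated data. Single log2 ratios used CPM + 10, which understates low genes; medians over genes used plain CPM ratios. A count of 0 was read as up to 3 counts. No ratio was made for classes under 30 cells in either library. A ratio was printed for a member in classes holding 10% or more of its UMIs in the library where it is higher, with 20 or more UMIs; other ratios were added after their values were seen. Of the partner list the 4 genes with most UMIs were named, and 3 genes of similar profile for each member with 100 or more UMIs. Genes with 10 or more UMIs gave the share past 2-fold. The members, partner list, markers and gates were chosen with earlier results of these data known. Annotation was GENCODE vM21 of GRCm38, and the labels name no batch. For thinning, each cell was reduced to 2000 UMIs and shallower cells left out. Each thinned share rests on a single random draw, and its interval does not include the noise of that draw. The alternatives tried were other cell filters, doublets kept, doubled gate minimums, Leiden clusters (leidenalg 0.10.2), equal cell weights, no top cells, another pseudocount, another thinning depth and equal class weights.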

Additional observations from a re-analysis of the deposited data

How the results depend on the processing

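No paired analysis was possible because each genotype has 1 library. The log2 ratios of Card14KI to WT were recomputed with other filters, gates, weights and scaling. Of 346 values, 264 stayed within the counting interval of the reported one, 72 moved further and 10 reversed a ratio whose interval left out 1. The 72 and 264 hold another 3 that changed sign where the reported interval included 1: Ccl22 in phagocytes (-0.31) at 1.33 with doubled minimums and 0.36 without the top cells, and Ccr8 in lymphocytes of no subset gate (-0.24) at 0.06 with a stricter filter. In 23 of the 346 the 2-fold call changed. Of 30 differences in shares recomputed at other thinning depths and, chosen after seeing the data, other filters and gates, 29 stayed within their intervals, and basal Ccl27a (16.9 points) was 4.23 with doubled minimums; 9 shares of a gene's UMIs held by its main class stayed within theirs and 7 moved. For Ccl20 in granular keratinocytes (-0.46) the value was -0.37 without a cell filter, -0.37 with doublets kept, -0.62 with doubled gate minimums and -0.32 with Leiden clusters. For Ccl20 in all keratinocytes (0.62) it was 0.74 with Leiden clusters, 0.49 with cells weighted equally and 0.11 with the same class weights in both libraries, an alternative chosen after seeing the data. For Ccl20 in basal cells (0.45) equal cell weights gave -0.30. For Ccl27a in the upper hair follicle (-0.91) it was -1.09 with Leiden clusters and -1.35 with equal cell weights. For Ccl27a in basal cells (0.13) it reversed to -0.53 with doubled gate minimums, -0.20 with Leiden clusters and -0.05 with equal cell weights, and was 0.22 without the top cells. For Ccl27a in all keratinocytes (0.06) it was 0.14 without a cell filter, 0.13 with doublets kept and 0.12 with Leiden clusters, and reversed to -0.02, -0.15 and -0.24 with doubled minimums, equal cell weights and the same class weights; outside the granular gate (0.13) equal cell weights gave -0.06. For Ccl1 in lymphocytes (-2.94) a pseudocount of 1 gave -4.05. For Ccr7 in mononuclear phagocytes (0.68) it was 0.14, 0.13 and 1.42 without a filter, with doublets kept and with doubled minimums, 0.03 without the top cells, and -0.02 with the same class weights. For Ccr4 over all kept cells (0.09) equal cell weights gave -0.10. The difference in the share of lymphocytes with Ccr7, not among the 30, was -0.44 points at 2000 UMIs per cell and 5.71 at 1000. The cause of these shifts was not tested. For Ccr6 (-1.26), Ccr8 (-0.47) and Ccr4 (-0.52) in lymphocytes every alternative run stayed within the interval. Depth limits the scarce genes most: Ccl17, Ccl1, Ccr10, Ccr6 and Ccr8 had 5 to 18 UMIs each in Card14KI.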
